A study of Mus musculus with 8 samples.

Results

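The replication-dependent histone genes code for the bulk of the histones laid down on new DNA in S phase. They were taken as every transcript whose symbol begins with Hist1h, Hist2h, Hist3h or Hist4h, which gave 25 of the 13558 transcripts with deposited values. The gene annotation GENCODE M21 (build GRCm38) lists 67 protein-coding genes with such a symbol. The table held 3 of 6 genes for the linker histone H1, 6 of 18 for H2A, 9 of 18 for H2B, 4 of 12 for H3 and 3 of 13 for H4. By cluster, 21 of 54 genes came from Hist1 on chromosome 13, 2 of 10 from Hist2 on chromosome 3 and 2 of 2 from Hist3 on chromosome 11, while the single Hist4 gene on chromosome 6 was not analysed here. The values come from mouse embryonic stem (mES) cells, which the labels give as male C57BL/6 cells grown with fetal calf serum and LIF and sorted for the surface antigen SSEA-1. 4 libraries (WT) carried the conditional allele Trimfl/fl, with exon 4 of Trim71 flanked by loxP sites and a Cre-ERT2 recombinase driven from Rosa26. 4 libraries (KO) were Trim-/-, mutated, as the labels give it, by 500 nM 4-hydroxytamoxifen (4-OHT) for 2 days and kept for at least 7 days, while the study's methods give a lower dose and a shorter time after it. By the study's methods, control cells received the solvent alone, so that the genotype and the exposure to 4-OHT cannot be told apart. Each genotype was sampled from 2 clones: KO replicates 1, 2 and 3 and WT replicates 2 and 3 came from clone E3, and KO replicate 4 and WT replicates 1 and 4 from clone 1. Days 3, 4 and 5 each had 1 library of either genotype, from the same clone. Values are given in the order of the replicate numbers throughout.

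H2A, H2B, H3 and H4 form the octamer around which DNA is wrapped, and H1 binds the DNA that links octamers. Their genes lie in clusters, mostly have no introns, and are transcribed in S phase under the coactivator Npat. Unlike other mRNAs, their transcripts usually end without a poly(A) tail just past a short stem-loop, which is bound by the stem-loop binding protein Slbp and is needed for 3′ end formation, translation and decay of the mRNA when DNA synthesis stops. Some histone genes can also give transcripts that run on to a downstream poly(A) signal. The libraries compared here were made from RNA selected on poly-T beads, and so hold what those beads retained, with random priming and no record of the strand. How much histone mRNA without a tail passed the beads was not measured.

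The stem-loop was therefore searched for in the annotated part after the stop codon of each member, as GG, any 2 bases, CTTTT, any 1 base, AG, any 2 bases and CC in a row, on the transcript strand. It was found in 15 of the 25 members and, anywhere in a transcript, in 0.161% of 55450 GENCODE genes. 10 members shared the same motif sequence, Hist1h2bk and Hist1h3c shared a second form, and the 3 H4 members each had a form of their own. The following lines show the motif in capitals with 5 bases on either side in lower case, 5′ to 3′, for the 3 members past the unadjusted threshold in the main comparison below, the 3 H4 members and Hist1h1c, so that each form of the stem is shown:
Hist3h2ba: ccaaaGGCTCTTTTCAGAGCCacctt
Hist3h2a: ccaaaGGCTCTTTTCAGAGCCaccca
Hist1h1c: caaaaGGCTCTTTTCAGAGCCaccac
Hist1h2bk: ccaaaGGCTCTTTTAAGAGCCactaa
Hist1h4i: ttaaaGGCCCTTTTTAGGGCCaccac
Hist1h4d: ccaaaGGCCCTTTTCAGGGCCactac
Hist1h4b: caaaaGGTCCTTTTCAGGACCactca
These transcripts lie, in GRCm38 and on the plus strand unless stated, at chr11:58948920-58949533 (Hist3h2ba), chr11:58954685-58956830 (Hist3h2a), chr13:23738808-23740367 (Hist1h1c), chr13:22035870-22036345 (Hist1h2bk), chr13:22040636-22041362 (Hist1h4i, minus strand), chr13:23581598-23582735 (Hist1h4d) and chr13:23757013-23757409 (Hist1h4b), each with 1 exon. The motif began between 25 bases (Hist1h1c and Hist1h3c) and 59 bases (Hist2h2aa1) after the stop codon. In Hist1h2bk the annotated transcript stopped 30 bases past it, whereas the transcripts of Hist1h1c, Hist1h4d and Hist3h2a went on for 840, 770 and 1643 bases. 10 members had an annotated part of 200 to 2192 bases after the stop codon, and the other 15 had 114 bases or fewer. A poly(A) signal (AATAAA or ATTAAA) lay within the last 40 bases of 7 members, all among those 10: Hist1h1c, Hist1h2bq, Hist1h2br, Hist1h4i, Hist2h2be, Hist3h2a and Hist3h2ba. Some of the 10 members without the motif, such as Hist1h1b, Hist1h2ai and Hist1h3h, are annotated to the stop codon alone, so that the motif could not be looked for in them.

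**Figure D1:**
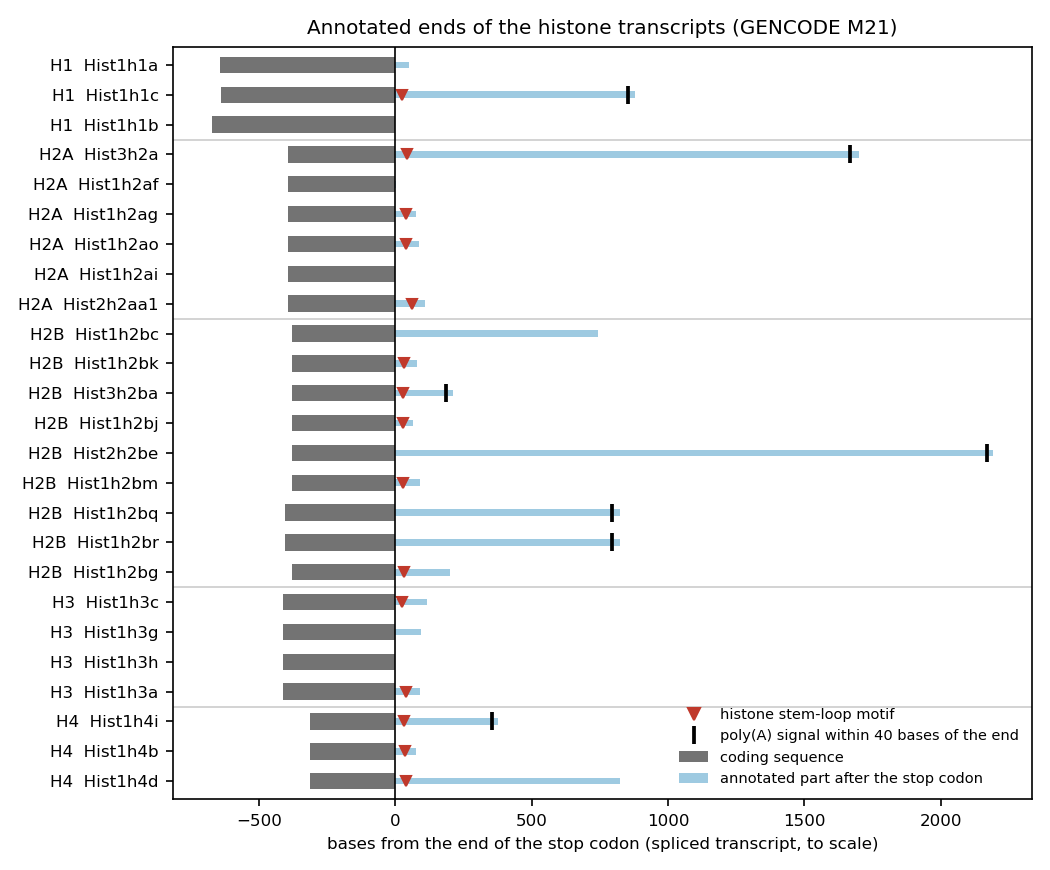
Annotated transcripts of the 25 histone members aligned at the end of the stop codon (x axis, bases; grey, coding sequence; blue, annotated part after it; triangle, stem-loop motif; bar, poly(A) signal). The motif lies 25 to 59 bases past the stop codon in the 15 members that have it, and 10 members are annotated over 200 bases or more beyond the stop.

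The 13518 transcripts whose reads could be recovered from the deposited values summed to between 7027025 reads (WT replicate 2) and 26090352 reads (WT replicate 3). The targeted gene Trim71 had 568 ± 249 (SD, n = 4) normalized counts over the KO libraries and 2523 ± 367 (SD, n = 4) over the WT libraries, with every KO library under every WT library. All 12 markers of ES cells that were looked up were in the table, and none passed an unadjusted p under 0.05 in the main fit. Klf4 and Utf1 were nevertheless higher in the comparison within days given below. In that comparison 2 primitive endoderm markers (Pdgfra, -0.68, and Dab2, -0.75) and the fibroblast marker Pdgfrb (-0.73) were lower on the log2 scale. The medians there were 0.81 over the 7 primitive endoderm markers and -0.01 over the 6 fibroblast markers. In the main fit, among markers of other cell types, Eomes (mesoderm) was higher in KO and Nes and Neurog1 (neural) were lower, at unadjusted p-values of 0.0384, 0.0161 and 0.0377 (limma). 0 of 6 fibroblast markers and 0 of 7 primitive endoderm markers passed in it. The main-fit median log2 fold change of the primitive endoderm markers was 1.32, with summed levels of 279 to 602 normalized counts in KO and 92.6 to 474 in WT. In the main fit 4.62% of all transcripts were higher and 4.46% lower, and in the comparison within days 9.92% and 9.26%. Whether cells of these types had a part in the histone values was not tested. In bulk RNA, a change in the number of cells in S phase and a change in histone mRNA per cell cannot be told apart.

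Histone transcripts were scarce in these libraries. The mean over the 8 libraries ran from 8.22 (Hist2h2aa1) to 128 normalized counts (Hist1h2bc), with a median over members of 16.8 against 357 over the whole table. A normalized count is a read count divided by the library's size factor, and 1 read was worth 0.443 to 1.76 normalized counts. The median over members and libraries was 18 reads, 15 of 25 members had a median of under 20 reads, and 4 (Hist1h2ai, Hist1h2ao, Hist1h3h and Hist2h2aa1) had no read in at least 1 library, where a count of 0 still allows up to 3 reads. In 4 values of 3 H2A members (Hist1h2ag, Hist1h2ai and Hist1h2ao) the deposited value was 1, the floor the authors set. Counting error is correspondingly large in the lower members. Per kilobase of annotated transcript, the WT level with the clone correction taken back was highest in Hist1h2bk at 117 normalized counts per kilobase and lowest in Hist2h2be at 8.03. Replacement histones are made outside S phase as well, mostly from genes with introns and as mRNAs with a poly(A) tail. The main ones were far more abundant, as H2afz had 4456 and H3f3b 4128 normalized counts per kilobase in WT.

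**Figure D2:**
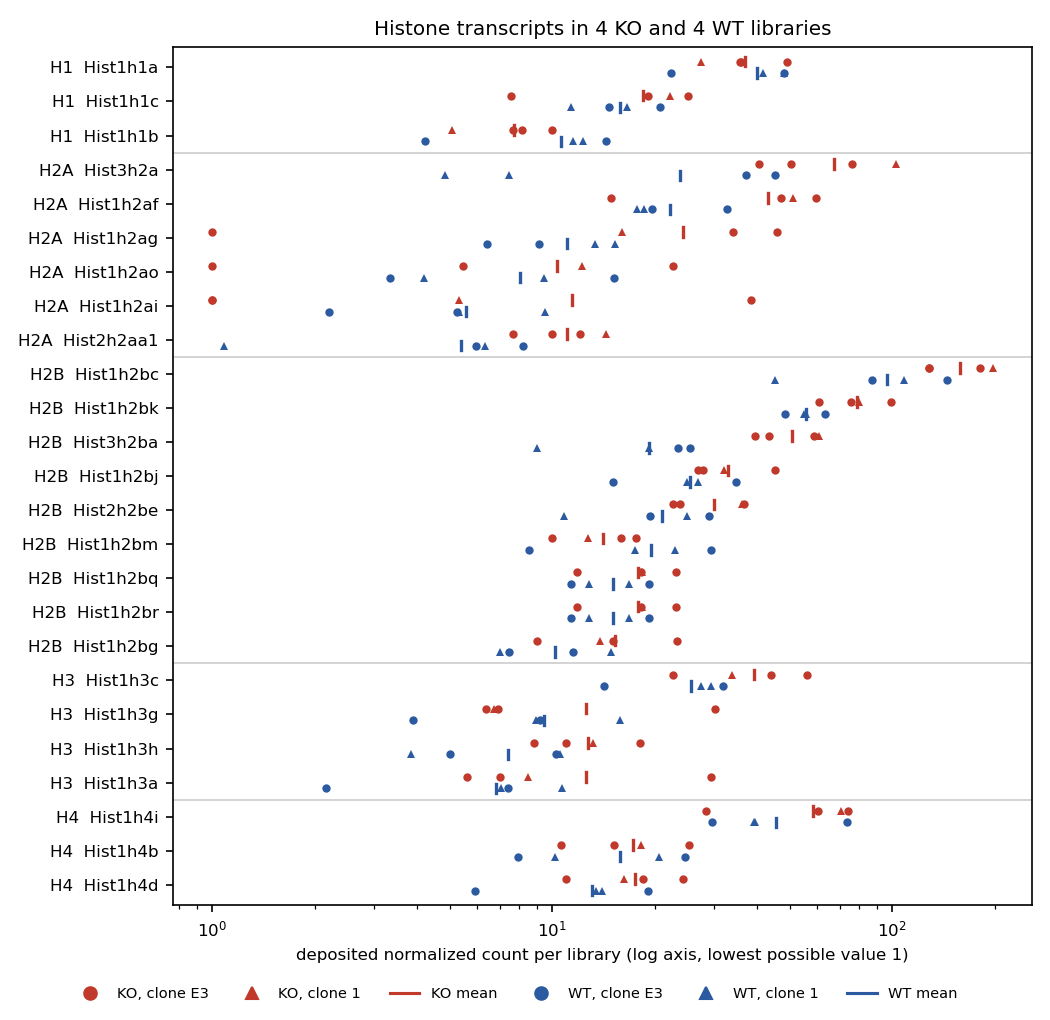
Deposited normalized counts (x axis, log scale, floor at 1) of the 25 members in the 4 KO (red) and 4 WT (blue) libraries, with circles for clone E3, triangles for clone 1 and vertical lines for the group means. Only Hist3h2ba has all 4 KO values, from 39.4 to 61.0, above all 4 WT values, from 9.05 to 25.5.

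Many members share sequence with other genes. Hist1h2bq and Hist1h2br had identical values in all 8 libraries and shared nearly every 100-base window, so they stand for 1 measurement. In 10 of 25 members more than 50% of the 100-base windows also occurred in another gene, among them Hist1h2af (79.3%), Hist1h2bk (70.8%), Hist1h3h (92.0%) and Hist2h2aa1 (100%), whose values are therefore uncertain as single genes. Hist3h2ba shared 4.85% of its windows, and Hist1h1a, Hist1h1b, Hist1h4d and Hist2h2be shared none.

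The mean share of the reads that fell in histone members was higher in KO. The members' reads per 1000000 recovered reads were 50.4 (exact 95% binomial interval 46.5 to 54.5), 81.8 (77.1 to 86.7), 77.7 (72.8 to 82.8) and 73.9 (68.3 to 79.8) in the KO libraries. The WT libraries held 35.5 (32.5 to 38.8), 55.9 (50.5 to 61.7), 47.1 (44.5 to 49.8) and 44.2 (39.97 to 48.8). The intervals cover counting error only. KO replicate 1 lay below WT replicate 2, so the groups overlapped, while the other 3 KO libraries lay above all WT libraries. The means were 70.9 ± 14.1 (SD, n = 4) over the KO libraries and 45.7 ± 8.40 (SD, n = 4) over the WT libraries, a ratio of 1.55. By class the ratio of the mean shares was 2.27 for H2A, 1.798 for H3, 1.46 for H2B, 1.46 for H4 and 1.02 for H1. From deposited values it was 2.25, 1.59, 1.52, 1.28 and 0.97 in the same order. The KO and WT libraries overlapped in every class, as in H3 with 3.55 to 12.8 reads per 1000000 in KO and 3.02 to 5.98 in WT. The H2A and H3 ratios include members that the authors' filter kept through their KO mean alone, and the H1 ratio includes Hist1h1b, kept through its WT mean alone.

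**Figure D3:**
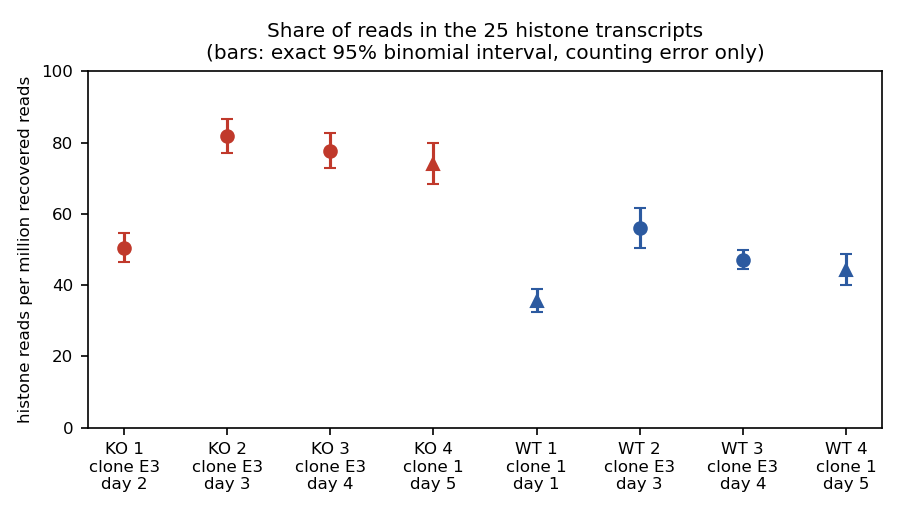
Reads in the 25 histone members per 1000000 recovered reads (y axis) in each library, with the exact 95% binomial interval as error bar. KO replicates 2 to 4 lie at 73.9 to 81.8, KO replicate 1 at 50.4, and the WT libraries at 35.5 to 55.9.

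The members were then compared one by one between KO and WT, with limma on log2(value + 1) and with genotype and clone as terms. 22 of 25 members had a positive log2 fold change (KO minus WT), against 50% of all transcripts, and their median was 0.48 against a median of 0.00 over the table. The authors had kept only transcripts with a mean of at least 10 in either group. Hist1h2ai, Hist1h2ao, Hist1h3a, Hist1h3g, Hist1h3h and Hist2h2aa1 reached that mean only in KO, and Hist1h1b only in WT. The filter thus fixed the direction of their difference in means. These transcripts are kept in the shares above and in the counts and medians of members. 3 members were higher in KO at an unadjusted p under 0.05, the threshold used below, and 0 were lower, where 4.62% of all transcripts were higher and 4.46% lower. 2 of those 3 also reached the fold change of 1.5 that the study asked for, against a background of 1.76%, and 0 were lower by it, against 2.49%. No member had an adjusted p under 0.05 by limma (the smallest was 0.445), and neither did any transcript of the table (0%, the smallest being 0.275). By voom on the recovered reads 0 members had one, and 3 were higher at an unadjusted p under 0.05, where 4.94% of all transcripts were.

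The 2 members past the criterion were the 2 genes of the Hist3 cluster on chromosome 11. Hist3h2ba, which codes for an H2B protein and whose stem-loop is shown above, had 43.3, 39.4, 58.9 and 61.0 normalized counts in the KO libraries, against 9.05, 25.5, 23.4 and 19.2 in the WT libraries. It was the only member whose groups did not overlap, which 5.48% of all transcripts did with KO above WT. Its log2 fold change was 1.34 (SE 0.33) with an unadjusted p of 0.00444 and an adjusted p of 0.445 by limma. An exact two-sided permutation test over the 70 assignments of the libraries gave 0.0286, the smallest value this design allows. The sign and the unadjusted call held when any of the 8 libraries was left out, with log2 fold changes from 0.90 to 1.51.

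Hist3h2a, the H2A gene next to it, had 40.5, 50.3, 76.2 and 103 normalized counts in the KO libraries, against 4.83, 37.3, 45.3 and 7.46 in the WT libraries. The groups overlapped, as WT replicate 3 was above KO replicate 1. The log2 fold change was 1.63 (SE 0.67) with an unadjusted limma p of 0.0435. With the clone correction undone, the 4 KO values were 24.4, 34.2, 60.1 and 119, and the 4 WT values were 20.96, 21.1, 29.2 and 23.6. The correction had lowered the values of clone 1 and raised those of clone E3 by the same amount. The log2 difference between KO and WT was larger in clone 1, at 3.88 against 0.38 in clone E3 from the deposited values and at 2.36 against 0.55 with the correction undone. The genotype by clone interaction had an unadjusted p of 0.000459 (adjusted 0.178), and 0.0282 with the correction undone. Clone 1 had a single KO library, and without it (KO replicate 4) the log2 fold change of Hist3h2a was 0.38 with an unadjusted p of 0.269 by limma. Leaving out WT replicate 1, WT replicate 4 or KO replicate 3 also ended the call, at unadjusted limma p-values of 0.0737 to 0.0839. A transcript of Trim17 starts at the same base and shares exonic sequence with Hist3h2a (29.8% of its windows were shared), so reads of these 2 genes cannot be fully told apart.

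Among the other H2A genes, Hist1h2af had 14.9, 59.9, 46.9 and 51.2 normalized counts in the KO libraries, against 18.6, 19.6, 32.6 and 17.7 in the WT libraries. 3 KO libraries were above all WT libraries and KO replicate 1 was below them. The log2 fold change was 0.80 (SE 0.47), which did not pass (unadjusted limma p of 0.129). All 6 H2A members had a positive value in the deposited values, with a median of 0.68 and a range from 0.04 (Hist1h2ai) to 1.63 (Hist3h2a). Among them Hist1h2ai, Hist1h2ao and Hist2h2aa1 reached the authors' minimum group mean of 10 only in KO. With the trend on GC content and length removed 4 of the 6 were positive, and Hist1h2ao fell to -0.23. In Hist1h2ai the KO mean of 11.5 rested on KO replicate 2 with 38.5, while the other 3 KO libraries held 1, 1 and 5.32, and its log2 fold change was -0.97 with the clone correction undone, -1.12 by voom and -0.37 with the trend on GC content and length removed.

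H2B was the best covered class, with 8 of 9 members at a positive value and a median of 0.48. Hist1h2bk had 60.8, 99.3, 75.7 and 79.7 normalized counts in the KO libraries, against 55.6, 63.6, 48.5 and 54.9 in the WT libraries. Only WT replicate 2 reached above the lowest KO library, and the log2 fold change of 0.48 (SE 0.18) had an unadjusted limma p of 0.0310, short of 1.5-fold. That call was lost without KO replicate 2 or 4 or WT replicate 1, 3 or 4, with log2 fold changes of 0.38 to 0.48. Hist1h2bc, the most abundant member, which is annotated with a second exon, had 128, 128, 181 and 198 normalized counts in KO and 45.2, 87.1, 145 and 109 in WT. WT replicate 3 lay inside the KO range, and the log2 fold change of 0.76 (SE 0.37) did not pass (unadjusted limma p of 0.0811). Hist1h2bm was the one H2B member with a negative value, -0.33 (SE 0.38), at a mean of 14.1 in KO and 19.6 in WT.

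All 4 H3 members had a positive value, with a median of 0.68 and a range of 0.24 to 0.76, and none passed. Hist1h3a, Hist1h3g and Hist1h3h reached the authors' minimum group mean of 10 only in KO. Hist1h3c, the most abundant, had 22.7, 56.1, 44.1 and 33.7 normalized counts in the KO libraries, against 27.4, 31.7, 14.2 and 29.4 in the WT libraries, and again KO replicate 1 fell within the WT range. Hist1h3h had the smallest unadjusted p of the class (0.0769, log2 fold change 0.76, SE 0.37). In Hist1h3g, KO replicate 2 with 30.2 stood apart from 6.40, 6.92 and 6.73 in the other KO libraries, and its log2 fold change of 0.24 had an SE of 0.59.

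The 3 H4 members also had positive values, between 0.22 and 0.48, with a median of 0.36. Hist1h4i had 28.2, 74.3, 60.5 and 70.7 normalized counts in the KO libraries, against 39.2, 73.8, 29.5 and 39.6 in the WT libraries. The groups overlapped over nearly their whole range, and the log2 fold change was 0.36 (SE 0.41). Hist1h4d (0.48, SE 0.38) and Hist1h4b (0.22, SE 0.43) did not pass either.

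The H1 class had values on either side of 0. Hist1h1a had 48.9, 35.6, 36.0 and 27.4 normalized counts in the KO libraries, against 41.6, 48.1, 22.3 and 48.0 in the WT libraries, a log2 fold change of -0.07 (SE 0.30). Hist1h1b had -0.33 (SE 0.38) and Hist1h1c 0.13 (SE 0.39), and the class median was -0.07. Whether H1 differed from the core histones was not tested.

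**Figure D4:**
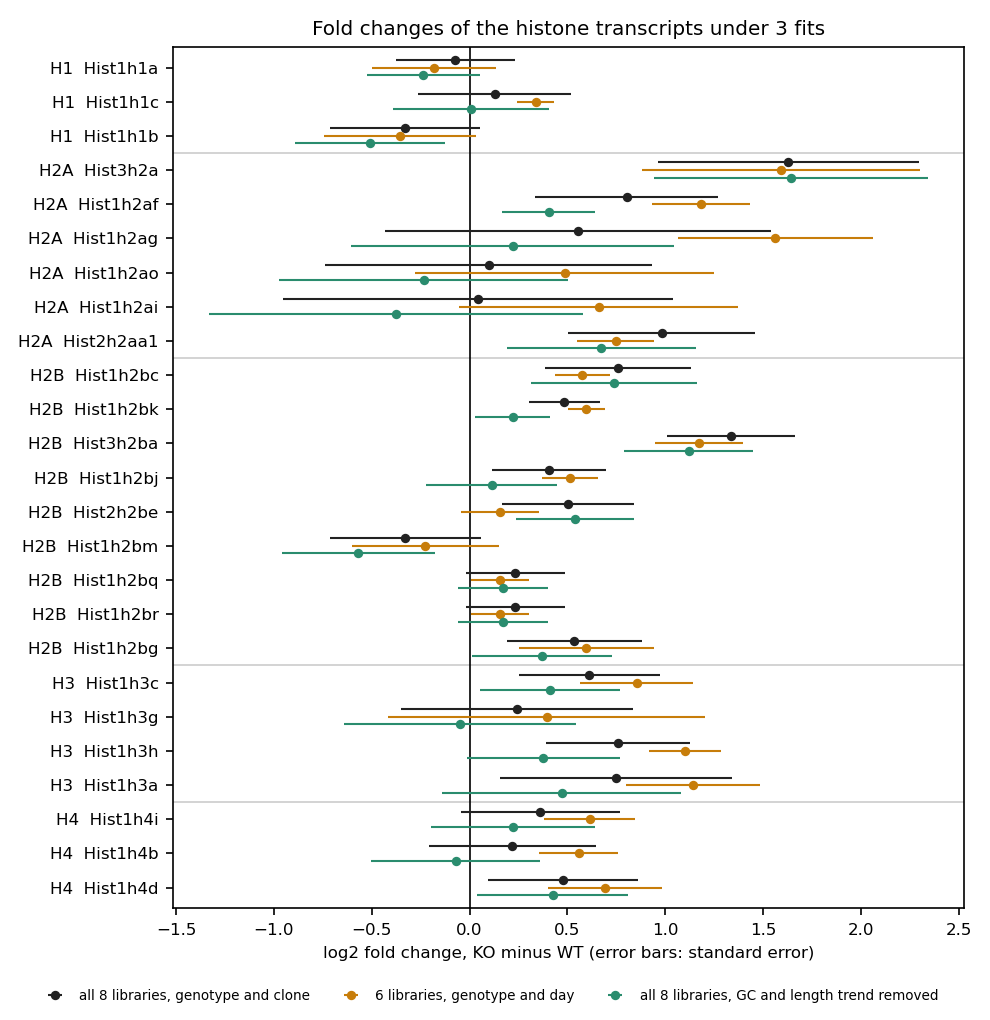
Log2 fold change (KO minus WT, x axis) with its standard error for each member by class under 3 fits. Black points, over all 8 libraries, are above 0 in 22 of 25 members, orange points, over the 6 libraries of shared days with day as block, also in 22, and green points, with the trend on GC content and length removed, in 18.

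KO replicate 1 was the lowest KO library for 18 of 25 members, KO replicate 2 the highest for 15, WT replicate 2 the highest WT library for 15 and WT replicate 3 the lowest for 14. The mean of the members' centred log2 values was -0.36, 0.69, 0.24 and 0.33 in the KO libraries and -0.35, 0.10, -0.50 and -0.15 in the WT libraries. KO replicate 1 and WT replicate 1 had nearly the same mean, and KO replicate 2 stood highest. KO replicate 1 was sampled on day 2 and WT replicate 1 on day 1, neither of which had a partner. The counts depended on single libraries. 5 members passed the criterion without KO replicate 1 and 5 without WT replicate 2, all higher in KO, where 330 and 287 of 13558 transcripts were higher. Without WT replicate 3 there were 3 higher and 2 lower (452 and 383 over the table). Without KO replicate 2 there were 2 higher and 1 lower (233 and 362), and without WT replicate 1 there were 3 higher (192). 1 member passed, higher in KO, without KO replicate 3, KO replicate 4 or WT replicate 4, where 255, 115 and 242 transcripts were higher. The median log2 fold change stayed above 0 in each case, from 0.24 to 0.69, being 0.26 without KO replicate 2.

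The libraries of days 3, 4 and 5 could be compared as pairs. On day 3, 18 of 25 members were higher in the KO library, on day 4 there were 23 and on day 5 there were 19, and the median log2 differences were 0.42, 0.72 and 0.40, where those over all transcripts were between -0.01 and 0.01. 15 members were higher in KO on each of the 3 days, against 24.6% of all transcripts. These were 1 of 3 H1 members, 4 of 6 for H2A, 4 of 9 for H2B, 3 of 4 for H3 and 3 of 3 for H4. With day as a replicate block over these 6 libraries, 12 members were higher and 0 lower at an unadjusted p under 0.05, against a background of 9.92% higher and 9.26% lower. 8 of them passed 1.5-fold, against 3.13%, 22 of 25 members were positive (49.6% of all transcripts), and the median was 0.60. The smallest p-values in this fit were those of Hist1h2bk (p of 0.00269, log2 fold change 0.60, SE 0.09), Hist1h3h (0.00359, 1.10, SE 0.19), Hist3h2ba (0.00581, 1.17, SE 0.22) and Hist1h2af (0.00837, 1.18, SE 0.25), all by limma with adjusted p-values of 0.199 to 0.207. The other 8 were Hist1h2bc (0.58), Hist2h2aa1 (0.75), Hist1h1c (0.34), Hist1h2bj (0.51), Hist1h3a (1.14), Hist1h2ag (1.56), Hist1h3c (0.85) and Hist1h4b (0.56), given here with their log2 fold changes. Of these 12, Hist1h3a, Hist1h3h and Hist2h2aa1 reached the authors' minimum group mean of 10 only in KO, and all of them are also among the 15 above. Hist3h2a no longer passed (unadjusted limma p of 0.0862, log2 fold change 1.59, SE 0.71). Leaving out the 2 libraries without a partner, with no block, already gave 6 members past the criterion, all higher in KO. In that fit 270 of 13558 transcripts were higher by the criterion and 267 lower.

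**Figure D5:**
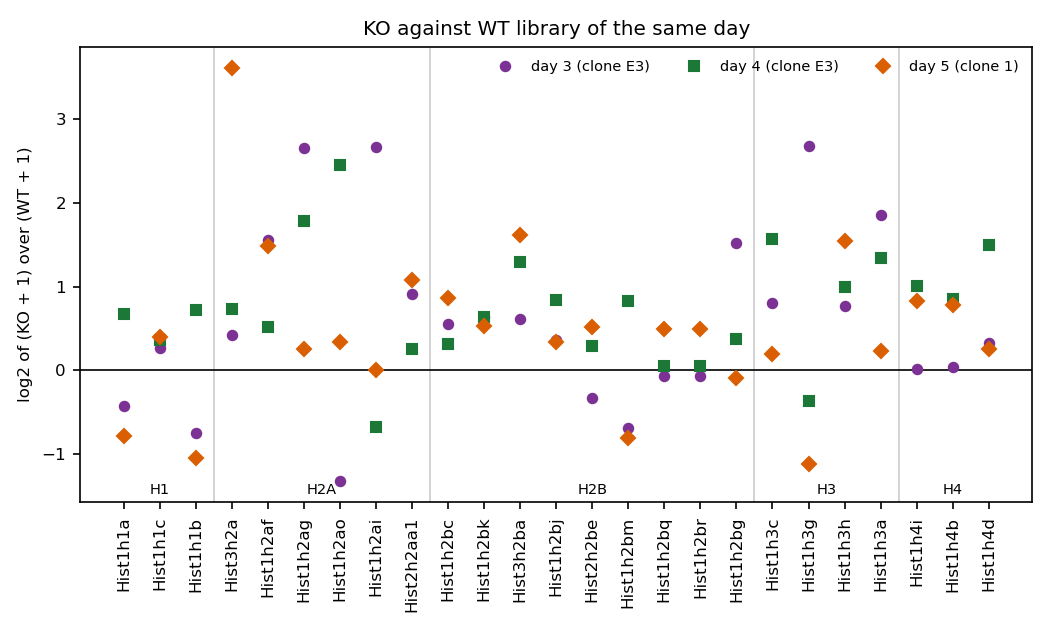
Log2 ratio of the KO to the WT library of the same day (y axis, pseudocount 1) for each member, for days 3 and 4 (clone E3) and day 5 (clone 1). 15 of 25 members lie above 0 on all 3 days, and Hist1h3g, Hist1h2ai and Hist1h2ao differ widely between days.

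Within clone E3 (3 KO and 2 WT libraries) 22 of 25 members had a higher mean in KO, with a median log2 difference of 0.38, and in clone 1 (1 KO and 2 WT libraries) 19 of 25, with a median of 0.31. No member had an adjusted interaction p under 0.05 by limma, where 0.0885% of the table did. Hist3h2a was the 1 member at an unadjusted p under 0.05, where 2.59% of all transcripts were.

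The histone transcripts differed from the rest of the table in length and base composition. The annotated transcripts of the members had a median length of 614 bases and a GC content of 57.2%, against 3007 bases and 50.7% over the table. After a smooth trend of the log2 values on GC content and length was removed in each library, the median log2 fold change of the members fell to 0.22, 18 of 25 stayed positive (48.1% of all transcripts), and 1 member passed the unadjusted threshold, against 4.04% higher over the table. That member was Hist3h2ba, with a log2 fold change of 1.12 and an unadjusted limma p of 0.0114. The same correction together with the day block gave a median of 0.27, with 3 members at an unadjusted p under 0.05 (Hist1h2bc, Hist3h2ba and Hist1h2bk, named after their values were seen), against 6.53% higher. By class the median changed from 0.68 to 0.31 in H2A, 0.48 to 0.22 in H2B, 0.68 to 0.39 in H3, 0.36 to 0.22 in H4 and -0.07 to -0.24 in H1.

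The 10 members with a long annotated 3′ part all had a positive log2 fold change, with a median of 0.49, and the 15 with a short one had a median of 0.41 with 12 positive. After the trend on GC content and length was removed the medians were 0.40 and 0.11, with 10 of 10 and 8 of 15 positive. The members that reached the authors' minimum group mean of 10 in KO only or in WT only are all among the short ones. These are Hist1h2ai, Hist1h2ao, Hist1h3a, Hist1h3g, Hist1h3h and Hist2h2aa1 (KO only) and Hist1h1b (WT only), so the 2 groups of members also differ in this. The long members took 36.6 ± 11.6 (SD, n = 4) reads per 1000000 over the KO libraries and 23.2 ± 3.44 (SD, n = 4) over the WT libraries, and the short ones 34.3 ± 13.3 (SD, n = 4) and 22.5 ± 7.51 (SD, n = 4). The 7 members with a poly(A) signal near the annotated end had a median log2 fold change of 0.36, and the 18 without one 0.48. With the trend removed the medians were 0.22 and 0.22, with 7 of 7 and 11 of 18 positive. Whether members differed in their response by the length of this part or by the signal was not tested. Of 5 RNAs without a poly(A) tail that were looked up, 2 were in the table (Rn45s and Rpph1), and neither passed over the 8 libraries. Rpph1, the RNA of RNase P, had 7.21, 21.1, 34.4 and 18.2 normalized counts in the KO libraries, against 14.4, 10.6, 12.4 and 12.7 in the WT libraries. KO replicate 1 was the lowest KO library of Rpph1 and the other 3 KO libraries lay above all WT libraries. With the day block its log2 fold change was 0.94 (SE 0.20, unadjusted limma p of 0.00918), where 9.92% of all transcripts were higher. Rpph1 was described after its values were seen. Rn45s, the ribosomal RNA precursor, had 0.12 (SE 0.22), and 0.02 (SE 0.11) with the block. Whether the retention of RNA without a tail had a part in the histone values was not tested.

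The genes that act on histone mRNA were compared in the same fit. Of 27 factors for histone gene transcription and 3′ end formation none passed the unadjusted threshold, and the median log2 fold change was -0.05. Slbp had 1576 ± 394 (SD, n = 4) normalized counts over the KO libraries and 1542 ± 256 (SD, n = 4) over the WT libraries, and Npat 1042 ± 432 (SD, n = 4) and 1177 ± 163 (SD, n = 4). Of 19 factors of histone mRNA decay 1 was higher and 1 lower. Lsm7, a subunit of the Lsm ring that binds the 3′ end of decaying RNA, had a log2 fold change of 0.38 (SE 0.13), and the 5′ exonuclease Xrn1 one of -0.61 (SE 0.23), at unadjusted limma p-values of 0.0245 and 0.0332. Over all transcripts 4.62% were higher and 4.46% lower. The call of Lsm7 was lost without KO replicate 1 or 2 or WT replicate 2 or 4, and that of Xrn1 without KO replicate 1 or WT replicate 1, 2 or 3 and with the day block, at a log2 fold change of -0.57. With the trend on GC content and length removed neither passed (0.20 and -0.30). None of 17 histone chaperones passed, with a median of -0.03. With the day block 1 factor of transcription and 3′ end formation was lower (Casp8ap2, -0.81), 2 decay factors were higher (Lsm4, 0.42, and Lsm7, 0.41) and 2 lower (Upf2, -0.73, and Smg1, -0.64), and 4 chaperones were lower (Atrx, -0.92, Nasp, -0.72, Nap1l1, -0.48, and Supt16, -0.54), where 9.92% and 9.26% of all transcripts were higher and lower. With the trend removed as well, Lsm4 (0.13), Lsm7 (0.23) and Smg1 (-0.34) no longer passed, and Casp8ap2 (-0.47) and Upf2 (-0.51) did.

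The genes of DNA synthesis and S phase entry had a median close to 0. Of 35 such genes 11 had a positive log2 fold change, the median was -0.08, and 2 were higher (thymidine kinase Tk1, 0.47, SE 0.12, and the transcription factor E2f2, 0.53, SE 0.19) and 1 lower (the DNA polymerase subunit Pole, -0.33, SE 0.14), where 4.62% and 4.46% of all transcripts were higher and lower. None of the 3 calls was kept with the trend on GC content and length removed (unadjusted limma p-values of 0.0582, 0.0548 and 0.109). With the day block Tk1 and E2f2 were higher and Prim1, Mcm4, Gins3 and Gins1 lower, against 9.92% and 9.26% of all transcripts, while Pole did not pass. The call of Pole was lost on leaving out any library but KO replicate 2 or WT replicate 4, and that of E2f2 without KO replicate 3 or 4 or WT replicate 3. Pcna, the sliding clamp of the replication fork, had 2634 ± 353 (SD, n = 4) normalized counts over the KO libraries and 2611 ± 354 (SD, n = 4) over the WT libraries. The median of the histone members and that of this list were not tested against each other.

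Of 12 replacement histones in the table, 2 were higher in KO, against 4.62% of all transcripts, none was lower, and the median was 0.25. The linker histone H1f0, known from cells that leave the cycle, had 1803, 1590, 1396 and 1800 normalized counts in the KO libraries, against 713, 1043, 862 and 886 in the WT libraries. The groups did not overlap, and the log2 fold change was 0.90 (SE 0.16) with an unadjusted limma p of 0.000803 and an adjusted p of 0.367. The H2A variant gene H2afj had 407, 757, 664 and 721 normalized counts in KO and 260, 400, 338 and 312 in WT, again without overlap, with a log2 fold change of 0.91 (SE 0.25) and an unadjusted limma p of 0.00710. H2afx (0.37, SE 0.38), H2afz (0.32, SE 0.27), H3f3a (0.15, SE 0.17) and H3f3b (0.29, SE 0.19) did not pass. The call of H2afj was lost without KO replicate 4 (log2 fold change 0.68). With the day block 4 of 12 were higher, against a background of 9.92%, and none lower: H2afj (1.03), H1fx (0.85), H1f0 (0.77) and H2afx (0.58). With the trend on GC content and length removed as well, H1fx (0.12) and H2afx (0.22) no longer passed. H2afj (0.91) and H1f0 (0.71) still did, and so did H2afv (0.30) and H3f3b (0.44), where 6.53% of all transcripts were higher.

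Outside the gene group, the 5 transcripts whose centred log2 values followed the mean of the histone members most closely over the 8 libraries were Coa6, Wdr18, Ccar2, 2310033P09Rik and Plec. Their Pearson correlation with that mean was 0.956 to 0.979. This likeness is a description over 8 libraries. Whether the depth or base composition of the libraries had a part in it was not tested. Their own log2 fold changes ran from 0.09 (Ccar2) to 0.42 (Plec), and none passed. With the day block 3 of the 5 did (Plec, 2310033P09Rik and Wdr18, at unadjusted limma p-values of 0.0155, 0.0319 and 0.0442), where 9.92% of all transcripts were higher. As the 5 were picked by likeness to the histone mean over the same libraries, these calls carry no separate information.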

How the data were processed

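RNA was selected on poly-T beads, and the libraries were sequenced as paired ends on a kit that does not keep the strand. The authors called bases with CASAVA 1.8, aligned reads with TopHat and Bowtie2 2.2.1 to mm10, counted reads per RefSeq transcript in Partek 6.6 and normalized the counts with DESeq2. They then corrected for clone, set values under 1 to 1 and left out transcripts whose higher group mean was under 10. What they deposited is thus a signal, normalized read counts after correction, and not raw counts. All 8 columns of values were used.

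A linear fit left no clone effect in any of the 13350 transcripts that never reached the floor. The correction was taken back by solving each transcript for whole reads, a common offset between clones and the libraries' scale factors, which gave one whole-read solution for 13518 transcripts (99.7%) and 100% of their deposited values back. On simulated data 99.9% were recovered, and 100% of the unique solutions were right. Recovered reads cover the deposited transcripts only.

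The main test was limma (version 3.58.1, under R 4.3.3) for genotype next to clone, on log2(value + 1), a scale that shrinks the changes of low transcripts. Adjustment was by Benjamini-Hochberg across all 13558. To pass the criterion a transcript needed 1.5-fold and an unadjusted p under 0.05. Whether cultures were separate for each library is not given in the sources used here beyond clone and day, so p-values measure the spread between these libraries. Single values were also compared by exact two-sided permutation tests (70 assignments).

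Each library has a day in its labels. Deviations from the group means were correlated between KO and WT libraries. With the clone correction undone, the correlation was 0.56 for day 3, 0.65 for day 4 and 0.53 for day 5. The median of the 13 other pairs was -0.20. Every shared-day pair joined libraries of the same clone and some other pairs did not, so these values cannot separate day from clone. In the deposited values, which are corrected for clone, days 3 and 4 had 0.49 and 0.58, and the other pairs a median of 0.06. Day 5 had -0.22 there, so no likeness by day apart from clone was seen for it. The labelled day was still used to pair 6 libraries.

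Named were Trim71, the 2 most abundant members and the one with the smallest p in each class, members past the criterion or without overlap, listed genes past the unadjusted threshold (at most 5 a list) with Slbp, Npat, H2afx, H2afz, H3f3a, H3f3b, H1f0 and Pcna, and the 5 transcripts most like the members. The further genes named for the day block, and Rpph1 and Rn45s, were chosen after their values were seen. Members and lists were chosen with earlier results of these data known. Lengths, GC content and ends came from GENCODE M21 (99.4% of transcripts matched by symbol), which may differ from the RefSeq models counted. The remaining steps ran in Python 3.11.15 with scipy 1.17.1, pandas 2.3.3, matplotlib 3.10.9 and numpy 2.4.6.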

Additional observations from a re-analysis of the deposited data

Results flagged for a closer look

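Of 86 groups of 4 libraries checked (the 25 members, Trim71 and the listed genes named above, in KO and in WT), 7 held a library whose gap to its nearest neighbour exceeded Dixon's 95% critical value for the group's range, where chance gives about 1 in 20, or 4.3. 3 of them were KO replicate 2 in low histone members: Hist1h2ai with 38.5 normalized counts (50 reads), Hist1h3a with 29.3 (37 reads) and Hist1h3g with 30.2 (36 reads). Hist1h2af in WT replicate 3 had 32.6 normalized counts. Npat was low in KO replicate 3 at 399 and high in WT replicate 2 at 1418, and Xrn1 was low in WT replicate 4 at 464.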

How the results depend on the processing

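The median log2 fold change of the members was positive in all 25 alternative fits and with the identical pair counted once, from 0.20 with the clone correction undone and the GC and length trend removed to 0.69 without WT replicate 2 (0.24 without WT replicate 3). No member had an adjusted p under 0.05 in any of them. The count past the criterion (2) became 0 when only the 3 members with a mean of at least 50 were tested, 1 in a linear model of the untransformed values or with the GC and length trend removed, 4 without a clone term (also with the correction undone), 6 over the 6 libraries of shared days, 8 with the replicate block by day (also with the correction undone) and 7 with that block in voom. The count at an unadjusted p under 0.05 (3) became 1 with the minimum mean of 50, in the linear model and with the trend removed, 5 without a clone term, 6 over the 6 libraries, 12 with the block (also with the correction undone) and 8 with the block in voom. Leaving out 1 library each gave 1 to 5 members for either count. Among the listed genes other than markers the count of 7 became 11 without a clone term, 12 in the linear model, 20 with the block (15 if the trend was removed too), 32 with the block in voom and 16 with the block and the correction undone, and ran from 4 to 10 with 1 library left out. Over all transcripts the count at an unadjusted p under 0.05 was 627 higher and 605 lower in the main fit. It was 974 and 924 without a clone term, 786 and 533 in the linear model, and 1345 and 1256 with the block. With the block in voom it was 1598 and 1548, and with the block and the trend removed 880 and 1207. Higher by the criterion were 238 in the main fit, 270 over the 6 libraries, 425 with the block and 399 with the block in voom. The ratio of the histone shares was 1.55 from recovered reads and 1.53 from deposited values. Except for the smaller number of members under the minimum mean and of libraries under the day fits, the cause of these changes was not tested.

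Of 789 values of 32 named transcripts under the alternatives, 28 turned sign, all in transcripts that had not passed the threshold. Hist1h1a had 0.10 in voom, Hist1h3g -0.049 with the trend removed, -0.026 with the block as well and -0.17 with the correction undone as well, and Hist1h4b -0.070 with the trend removed. Slbp had -0.085 over the 6 libraries, blocked or not, -0.021 blocked and with the trend removed, -0.072 with the block in voom and -0.077 with the block and the correction undone. With 1 library left out the values ran from -0.47 to 0.27 in Hist1h1a, -0.16 to 0.45 in Hist1h1c, -0.87 to 0.091 in Hist1h1b, -0.23 to 0.79 in Hist1h3g, -0.17 to 0.64 in Hist1h4b, -0.14 to 0.19 in Slbp, -0.54 to 0.077 in Npat and -0.086 to 0.14 in Pcna. Of the other values 649 kept their sign and side of the threshold, 80 lost it and 32 gained it. Fits with both the clone correction undone and either the trend or the block were chosen after seeing the data.

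The depth limits single members: most rest on few reads per library, many share sequence with paralogs, clone 1 has 1 KO library, and the block leaves 6 libraries.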
